A study of Mus musculus with 6 samples.

Results

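The matrix metalloproteinases (Mmp), the Adamts proteases and the tissue inhibitors of metalloproteinases (Timp) were followed in RNA-seq of colorectal tumors from *Trp53fl/fl* and *VP* mice. The members were chosen by gene name and comprised 45 of the 54167 genes measured, namely 22 Mmp, 4 Timp and 19 Adamts genes. All mice carried *Trp53* alleles flanked by loxP sites. These alleles are intact in the 3 *Trp53fl/fl* tumors, while the 3 *VP* tumors came from mice that also carry *Pvillin-Cre*, in which the villin promoter drives Cre in the intestinal epithelium, so that stromal and immune cells keep *Trp53*. Mice, labelled as strain C57BL/6J, were 8 weeks old when they received 10 mg/kg of the carcinogen azoxymethane (AOM), followed by cycles of 7 days of 2.5% dextran sulfate sodium (DSS), an agent that injures and inflames the colon, and tumors were collected on day 98. Levels are given as TPM, transcript abundances that are length-corrected and add up to a fixed total per tumor, so they can be set side by side between genes but carry no sequencing depth.

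Matrix metalloproteinases are zinc-dependent proteases that are made as inactive precursors and cut collagens, laminins, elastin and other matrix proteins as well as cytokines and receptors. In inflamed and cancerous colon they come largely from fibroblasts, macrophages and neutrophils, with some from epithelial cells. Adamts proteases are secreted relatives with thrombospondin motifs that trim proteoglycans such as versican, process procollagens or cut von Willebrand factor. The Timps bind the active site of most Mmps and, in the case of *Timp3*, also of several Adamts proteases.

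*Trp53* itself was at 124.94, 99.30 and 147.45 TPM in *Trp53fl/fl* tumors, against 38.45, 32.79 and 27.83 TPM in *VP* tumors, which matches the genotype on every label (log2 fold change -1.87, SE 0.18, limma adjusted p = 0.0207). The tumors held epithelial tissue, as all 12 epithelial marker genes passed the expression filter. Their summed level ran from 10628 to 10954 TPM in *Trp53fl/fl* and from 12069 to 13063 TPM in *VP* tumors, without overlap. Of the 12 only *Krt19*, *Cldn7* and *Lgals4* lay higher in every *VP* tumor (25%, where 6.03% of all genes did). The others overlapped, with log2 fold changes from -0.03 (*Krt20*) to 0.37 (*Cdx1*) and 0.003 for *Epcam*. Fold changes are *VP* minus *Trp53fl/fl* on the log2(TPM + 1) scale, on which differences of genes at low levels come out too small. The test was limma with Benjamini-Hochberg adjustment over the 15117 genes that reached 1 TPM in 3 or more tumors. Of the 45 members 28 passed this filter, namely 14 Mmp, 3 Timp and 11 Adamts genes. A member that was expressed in one genotype alone could still pass, so counts over these 28 do not stand for all members.

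No member differed between the genotypes after adjustment over all genes. Among all genes tested 25 (0.165%) did so, with 12 (0.0794%) higher and 13 (0.086%) lower in *VP* tumors. At an unadjusted limma p under 0.05, 3 members were higher in *VP* tumors (*Mmp8*, *Adamts4* and *Adamts15*), where 4.51% of all genes were, and 1 was lower (*Mmp11*), where 8% of all genes were. Together these 4 make 14.3% of the 28 members tested, close to the 12.5% of all genes. In 5 members the 3 tumors of one genotype all lay above the 3 of the other, which is 17.9% of those tested and near the 19.3% of all genes. *Mmp8*, *Adamts4*, *Adamts15* and *Adamts9* lay higher in *VP* tumors (6.03% of all genes) and *Mmp11* lower (13.3% of all genes). The share of members that separated the genotypes was thus close to that of genes at large. Of the 28 members 18 had a positive and 10 a negative fold change, with a median of 0.17, whereas 5930 genes of all those tested were positive and 9187 negative, with a median of -0.07.

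**Figure D1:**
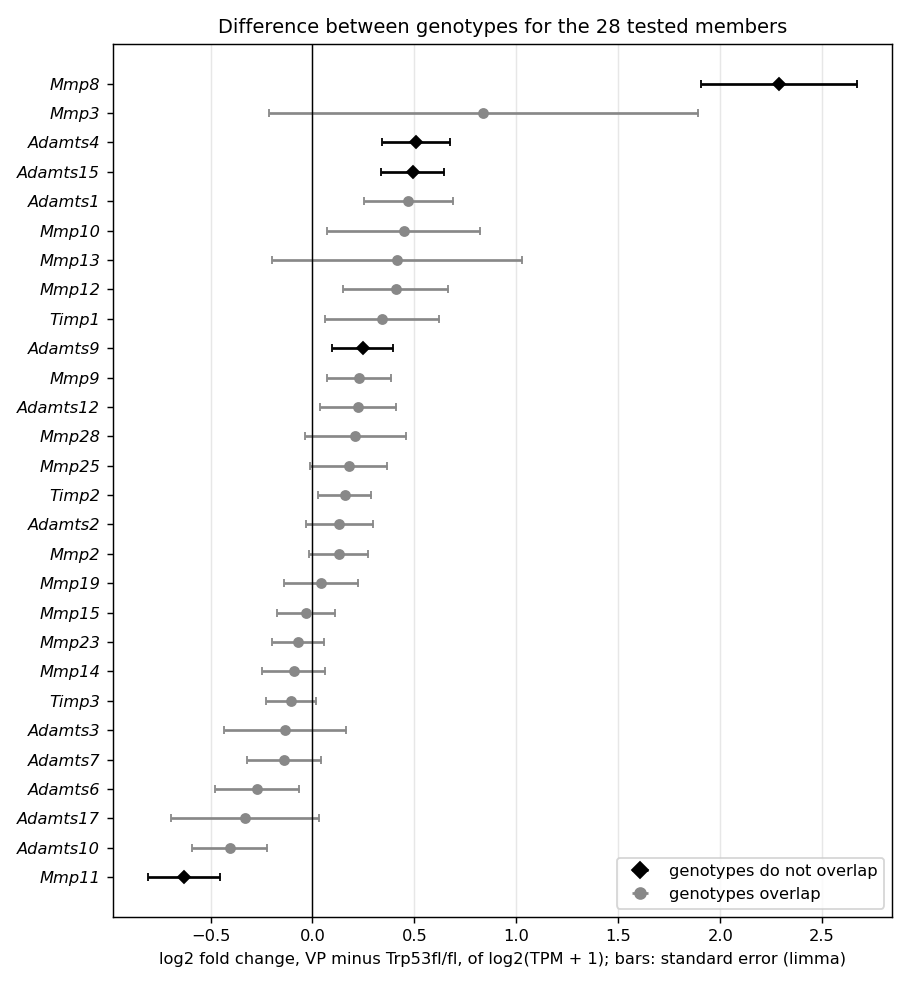
Log2 fold change of log2(TPM + 1) between genotypes, *VP* minus *Trp53fl/fl*, for the 28 members that passed the expression filter, with bars for the limma standard error. Black diamonds mark the 5 members whose tumors did not overlap between genotypes, and *Mmp8* at 2.29 stands apart from the rest, which lie between -0.63 and 0.84.

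The collagenases cut native fibrillar collagen. *Mmp8*, the neutrophil collagenase, which neutrophils store in granules, had the largest difference of all members and was 7.73-fold higher in *VP* tumors by the ratio of the means. It was at 1.92, 1.13 and 2.28 TPM in *Trp53fl/fl* tumors, against 23.37, 9.90 and 7.95 TPM in *VP* tumors. Every *VP* tumor was thus above every *Trp53fl/fl* tumor, and the *VP* tumors were also far more spread, with 1.78 ± 0.588 TPM (SD, n = 3) against 13.7 ± 8.40 TPM (SD, n = 3). Its log2 fold change was 2.29 (SE 0.38) with a limma adjusted p of 0.119, short of the threshold. It ran from 1.85 to 2.58 when each tumor was left out in turn.

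Most neutrophil marker genes, like *Mmp8*, lay higher in *VP* tumors. Of the 12 genes on the list 10 were tested, and all 10 had a positive fold change, with a median of 1.85. *Ngp* and *Camp* stayed below 1 TPM in every *Trp53fl/fl* tumor and passed the filter only through *VP* tumors, which fixed their direction. At an unadjusted limma p under 0.05, 7 of the 10 were higher (70%, where 4.51% of all genes were higher). After adjustment 1 was higher, namely *Ngp*, an antibacterial granule protein (limma adjusted p = 0.00804). *Csf3r* and *Ly6g* overlapped between genotypes, with log2 fold changes of 0.07 and 0.21. The summed level of the list ran from 373 to 705 TPM in *Trp53fl/fl* tumors and from 1184 to 2012 TPM in *VP* tumors, without overlap. *S100a8* and *S100a9* held most of it, with means of 132 and 253 TPM in *Trp53fl/fl* and 505 and 817 TPM in *VP* tumors. Granule genes on the list differed among themselves. *Mpo* and *Elane* were at most at 0.36 and 0.08 TPM in any tumor, while *Ngp*, *Ltf* and *Camp* were higher in every *VP* tumor. The means of these last were 0.547, 5.41 and 0 TPM in *Trp53fl/fl* and 32.9, 39.6 and 3.94 TPM in *VP* tumors. The summed level of 10 macrophage markers, 1290 to 1382 TPM and 1137 to 1568 TPM, overlapped between genotypes. Of these markers 2, *Cd68* and *Cd14*, were higher in every *VP* tumor and at an unadjusted limma p under 0.05. That is 20% of the list, where 4.51% of all genes were higher at that level. In bulk tissue more cells of a type and more RNA per cell cannot be told apart, and the part of neutrophils or macrophages in the level of *Mmp8* was not tested.

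*Mmp13*, the main interstitial collagenase of mice, was far more abundant but did not separate the genotypes. It was at 141.92, 29.82 and 89.28 TPM in *Trp53fl/fl* and at 133.86, 136.18 and 49.74 TPM in *VP* tumors. One tumor of each genotype was low and the others overlapped (log2 fold change 0.41, SE 0.61, limma adjusted p = 0.792). Without *Trp53fl/fl* replicate 2, the lowest tumor, the fold change was -0.21. The remaining collagenase genes, *Mmp1a* and *Mmp1b*, were listed at 0 in every tumor except for 0.06 TPM of *Mmp1b* in *Trp53fl/fl* replicate 3.

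**Figure D2:**
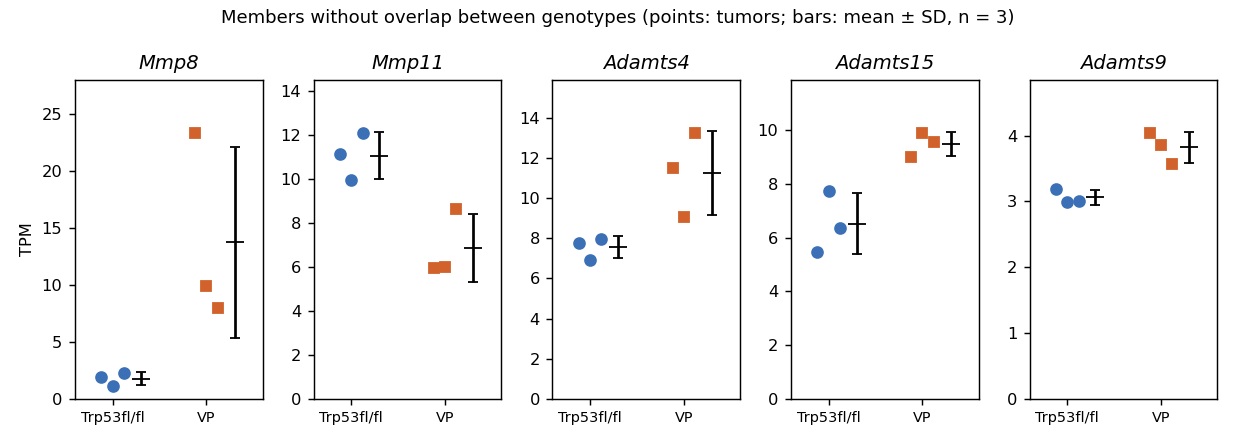
TPM of the 5 members whose tumors did not overlap between genotypes, with 1 point per tumor and bars for the mean ± SD of 3 tumors, each panel on its own linear axis from 0. *Mmp8* shows the widest gap, from a highest *Trp53fl/fl* tumor at 2.28 TPM to a lowest *VP* tumor at 7.95 TPM, while *Adamts9* differs by less than 1 TPM between means.

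*Mmp11*, or stromelysin 3, a stroma-derived enzyme that leaves cells already activated by furin, was the 1 member with lower levels in all *VP* tumors. It was at 11.15, 9.94 and 12.10 TPM in *Trp53fl/fl* tumors and at 5.95, 6.00 and 8.66 TPM in *VP* tumors. The means were 11.1 ± 1.08 TPM and 6.87 ± 1.55 TPM (SD, n = 3 each). The log2 fold change was -0.63 (SE 0.18) with a limma adjusted p of 0.301. The gene overlaps *Chchd10* on the opposite strand, which was at 64.87 to 133.3 TPM and had a log2 fold change of 0.10. Whether the reads were assigned by strand is not given in the sources used here. Fibroblast markers were mixed. Of the 9 tested, *Pdgfra*, *Lum* and *Dpt* were lower at an unadjusted limma p under 0.05 and without overlap. That is 33.3% of those tested, where 8% of all genes were lower at that level and 13.3% lay lower without overlap. The summed level of the list ran from 884 to 976 TPM in *Trp53fl/fl* and from 740 to 1087 TPM in *VP* tumors. The part of fibroblasts in the level of *Mmp11* was not tested.

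The other stromelysins, *Mmp3* and *Mmp10*, cut laminin, fibronectin and proteoglycans and activate precursor Mmps. *Mmp10* had the highest mean of all 45 members. It was at 248.85, 85.32 and 180.77 TPM in *Trp53fl/fl* tumors and at 211.62, 267.27 and 173.37 TPM in *VP* tumors (log2 fold change 0.45, SE 0.38, limma adjusted p = 0.627). *Mmp3* was at 54.47, 6.96 and 24.75 TPM in *Trp53fl/fl* tumors and at 138.28, 49.37 and 8.27 TPM in *VP* tumors. Both genotypes thus held a tumor below 10 TPM, and the highest tumor exceeded the lowest 19.9-fold. Its log2 fold change of 0.84 had a standard error of 1.05 (limma adjusted p = 0.754), and without *VP* replicate 1 it was -0.06.

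The gelatinases, which cut denatured collagen and basement membrane collagen IV, differed little. *Mmp9*, a granule enzyme of neutrophils and a product of macrophages, was at 34.27, 38.89 and 51.60 TPM in *Trp53fl/fl* tumors and at 47.82, 47.69 and 48.90 TPM in *VP* tumors. The 3 *VP* values lay inside the *Trp53fl/fl* range (log2 fold change 0.23, SE 0.16, limma adjusted p = 0.561). *Mmp2*, a product of fibroblasts, was at 74.10, 67.77 and 82.21 TPM in *Trp53fl/fl* tumors and at 96.58, 70.25 and 79.65 TPM in *VP* tumors (log2 fold change 0.13, SE 0.14, limma adjusted p = 0.723). *Mmp12*, the macrophage elastase, was at 37.91, 26.68 and 46.77 TPM and at 55.30, 58.05 and 35.20 TPM in the same order. Its tumors overlapped as well (log2 fold change 0.41, SE 0.26, limma adjusted p = 0.527).

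Membrane-type Mmps are anchored at the cell surface, where *Mmp14* cuts collagen and activates the precursor of *Mmp2*. *Mmp14* was the most abundant member after *Mmp10*. It was at 209.77, 166.32 and 218.64 TPM in *Trp53fl/fl* tumors and at 204.12, 157.22 and 195.81 TPM in *VP* tumors (log2 fold change -0.09, SE 0.15, limma adjusted p = 0.813). *Mmp15* was at 59.55, 68.97 and 67.17 TPM and at 60.57, 55.52 and 76.71 TPM in the same order (log2 fold change -0.03, SE 0.14, limma adjusted p = 0.939). The highest tumor was 1.39 times the lowest for *Mmp14* and 1.38 times for *Mmp15*. *Mmp25* reached 1.00 to 1.55 TPM over the 6 tumors, *Mmp17* 0.58 to 1.14 TPM, and *Mmp16* and *Mmp24* stayed below 1 TPM throughout.

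Among the remaining Mmps, *Mmp28*, or epilysin, an epithelial enzyme, was at 12.67, 12.05 and 7.20 TPM in *Trp53fl/fl* tumors and at 9.34, 12.88 and 14.78 TPM in *VP* tumors. The genotypes overlapped (log2 fold change 0.21, SE 0.25, limma adjusted p = 0.737), and without *Trp53fl/fl* replicate 3 the difference was -0.02. The gene overlaps *1700020L24Rik* on the opposite strand, at 10.54 to 22.59 TPM. *Mmp23* lay between 8.45 and 10.04 TPM and *Mmp19* between 5.63 and 8.0 TPM, both with overlap. *Mmp20* (enamelysin, a tooth enamel protease) and *Mmp27* stayed below 1 TPM, and *Mmp21* was listed at 0 in every tumor.

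The Mmp transcripts were dominated by a few genes. *Mmp14* made up a mean of 24.5% and *Mmp10* a mean of 23.5% of the summed TPM of the 22 Mmp genes, followed by *Mmp13* with 11.3% and *Mmp2* with 9.96%. The sum was 906, 532 and 801 TPM in *Trp53fl/fl* tumors and 1005, 891 and 718 TPM in *VP* tumors, with overlap. The share of *Mmp3* ran from 1.15% in *VP* replicate 3 to 13.8% in *VP* replicate 1.

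The inhibitors were abundant and overlapped between genotypes. *Timp2*, which both blocks Mmps and helps *Mmp14* to activate *Mmp2*, was at 57.30, 50.51 and 67.12 TPM in *Trp53fl/fl* tumors and at 69.02, 63.29 and 62.04 TPM in *VP* tumors (log2 fold change 0.16, SE 0.13, limma adjusted p = 0.621). *Timp3*, which is bound to the matrix, was at 65.96, 54.22 and 54.69 TPM and at 57.55, 55.71 and 48.84 TPM (log2 fold change -0.11, SE 0.12, limma adjusted p = 0.736). Neither differed by more than the spread between tumors. *Timp1*, an inhibitor induced in inflammation, was at 36.52, 27.18 and 39.15 TPM in *Trp53fl/fl* tumors and at 31.75, 66.81 and 37.95 TPM in *VP* tumors. *VP* replicate 2 alone was above the others (log2 fold change 0.34, SE 0.28, limma adjusted p = 0.620). *Timp4* was at 0.80, 0.71 and 1.09 TPM and at 2.27, 0.69 and 0.92 TPM and did not pass the filter. The 4 Timp genes summed to 133 to 162 TPM in *Trp53fl/fl* and 150 to 187 TPM in *VP* tumors.

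**Figure D3:**
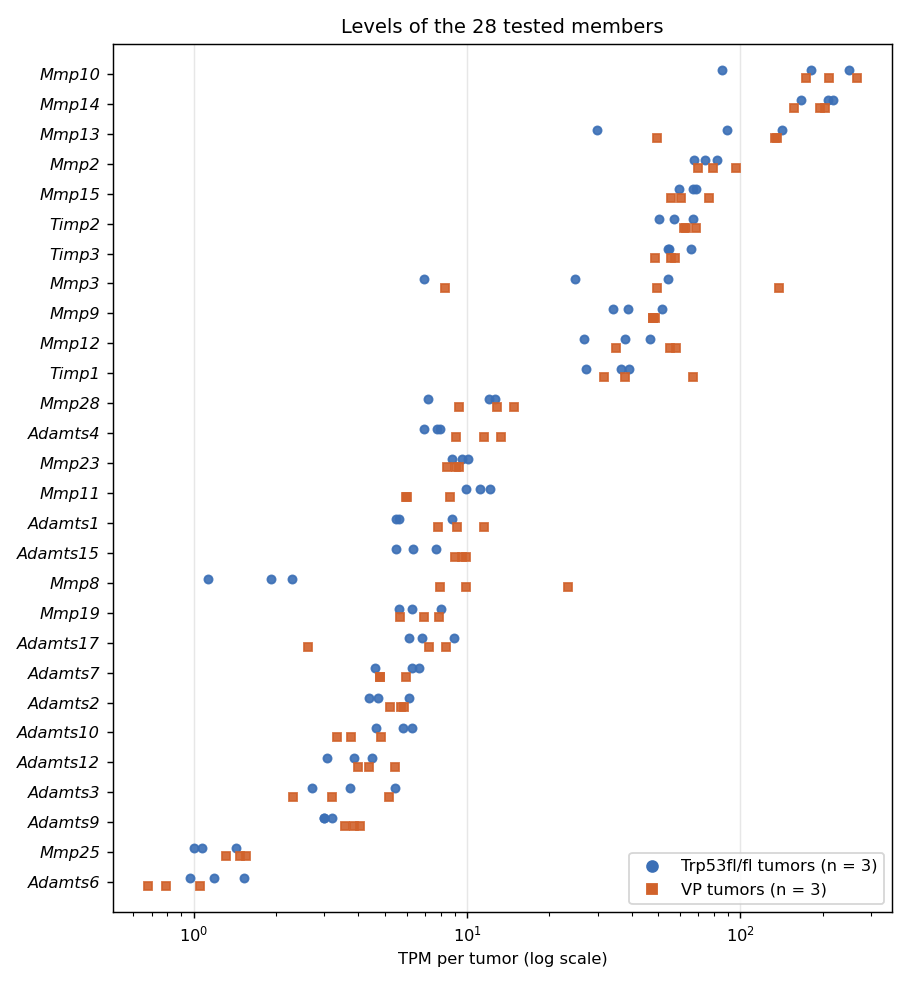
TPM per tumor on a log axis for the 28 members that passed the expression filter, ordered by their mean over 6 tumors, with blue circles for *Trp53fl/fl* and orange squares for *VP* tumors (n = 3 each). *Mmp10* and *Mmp14* lead, the Timps lie between 27 and 69 TPM, the Adamts genes lie below 14 TPM, and the points of *Mmp3*, *Mmp8* and *Mmp13* are the most scattered.

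The Adamts genes were expressed at lower levels, between 0.68 and 13.25 TPM for the 11 that were tested. The proteoglycanases, which cut versican and aggrecan, stood on one side. All 4 tested (*Adamts1*, *Adamts4*, *Adamts9* and *Adamts15*) had a positive fold change, with a median of 0.48. They stayed positive under median-of-ratios rescaling and quantile normalization, which is no separate support. These settings moved the median fold change of all genes upward, from -0.07 to 0.0006 and -0.016. None passed the adjustment. The summed level of the 7 proteoglycanase genes was 26.36, 23.97 and 23.76 TPM in *Trp53fl/fl* tumors and 35.55, 35.71 and 35.01 TPM in *VP* tumors. The sums did not overlap, and their means differed 1.43-fold.

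*Adamts4*, an aggrecanase induced by inflammatory cytokines, was at 7.76, 6.94 and 7.97 TPM in *Trp53fl/fl* tumors and at 11.49, 9.08 and 13.25 TPM in *VP* tumors. Every *VP* tumor lay higher (log2 fold change 0.51, SE 0.17, limma adjusted p = 0.327). *Adamts15* was at 5.47, 7.72 and 6.36 TPM in *Trp53fl/fl* tumors and at 9.01, 9.90 and 9.56 TPM in *VP* tumors, again without overlap (log2 fold change 0.49, SE 0.16, limma adjusted p = 0.318). *Adamts9* was at 3.19, 2.99 and 3.0 TPM and at 4.04, 3.85 and 3.57 TPM, a small gap that did not pass at an unadjusted level (log2 fold change 0.25, SE 0.15, limma adjusted p = 0.513). *Adamts1*, which cuts versican, overlapped between genotypes through *Trp53fl/fl* replicate 1. It was at 8.80, 5.61 and 5.51 TPM and at 9.20, 11.51 and 7.80 TPM (log2 fold change 0.47, SE 0.22, limma adjusted p = 0.424). The other proteoglycanases, *Adamts5*, *Adamts8* and *Adamts20*, did not pass the filter, and only *Adamts8* reached 1 TPM, in *VP* replicate 1. Versican, *Vcan*, was itself at 4.87, 6.87 and 4.78 TPM in *Trp53fl/fl* and at 7.33, 7.58 and 12.38 TPM in *VP* tumors (log2 fold change 0.61, SE 0.23, limma adjusted p = 0.366).

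The other Adamts genes pointed both ways. The procollagen N-propeptidases *Adamts2* and *Adamts3*, which trim new fibrillar procollagen, had fold changes of 0.13 and -0.14, and the third, *Adamts14*, stayed below 1 TPM. Of the 5 tested members outside these groups, *Adamts12* was positive (0.22) and *Adamts6*, *Adamts7*, *Adamts10* and *Adamts17* were negative, between -0.41 and -0.14. *Adamts10*, which acts on fibrillin microfibrils, had the most negative value of these, with 4.64, 5.82 and 6.27 TPM in *Trp53fl/fl* tumors and 3.33, 4.82 and 3.77 TPM in *VP* tumors (log2 fold change -0.41, SE 0.18, limma adjusted p = 0.416). For *Adamts17* the negative value came with 1 tumor, *VP* replicate 2 at 2.62 TPM, while the others ran from 6.10 to 8.94 TPM. *Adamts13*, the von Willebrand factor protease made in the liver, was at most at 0.18 TPM, and *Adamts16*, *Adamts18* and *Adamts19* also stayed below 1 TPM.

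A cluster of Mmp genes on chromosome 9 was looked at as a unit. It holds 9 members, in the order *Mmp13*, *Mmp12*, *Mmp1b*, *Mmp3*, *Mmp1a*, *Mmp10*, *Mmp8*, *Mmp27* and *Mmp20*, and 5 of them (*Mmp3*, *Mmp8*, *Mmp10*, *Mmp12* and *Mmp13*) were expressed. The promoters of this cluster are known for sites of AP-1, the Fos and Jun dimer that binds TGACTCA or TGAGTCA, and for TATA boxes. The search used the wider palindrome TGANTCA, which covers both of these and is read on both strands at once. RefSeq promoter windows of GRCm38.p6, from 250 bases before to 50 bases after a gene's start, were at hand for 31 of the 45 members. TGANTCA occurred in 7 of the 9 cluster genes (77.8%), in 0 of the other 22 members and in 8.97% of 27025 genes. TATAAA on either strand, which cannot overlap a match of TGANTCA, occurred in 8 of the 9 cluster genes (88.9%), in 2 of the other 22 members (9.09%) and in 15.7% of all genes. It began 29 bases before the start in *Mmp10*, 28 in *Mmp1a*, 16 in *Mmp13*, 49 in *Mmp1b* and 58 in *Mmp20*. In *Mmp3* and *Mmp8* it began 7 and 3 bases before the start, and in *Mmp12* at -4, past the start. The match in *Mmp8* reads TTTATA, which is TATAAA on the other strand. These matches were thus not all placed alike, and not each need be a TATA box. A match is a run of letters and does not show that a factor binds there. The windows of the 5 expressed cluster genes are shown from 110 bases before to 10 bases after the start, all on the plus strand, with TGANTCA in capitals. They were chosen because 4 of them hold TGANTCA within 63 bases of the start and *Mmp8* does not. They lie at chr9:7272404-7272523 (*Mmp13*), chr9:7347264-7347383 (*Mmp12*), chr9:7445712-7445831 (*Mmp3*), chr9:7502232-7502351 (*Mmp10*) and chr9:7558319-7558438 (*Mmp8*).
Mmp13: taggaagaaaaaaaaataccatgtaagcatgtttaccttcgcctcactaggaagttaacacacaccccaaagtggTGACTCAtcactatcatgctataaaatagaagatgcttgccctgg
Mmp12: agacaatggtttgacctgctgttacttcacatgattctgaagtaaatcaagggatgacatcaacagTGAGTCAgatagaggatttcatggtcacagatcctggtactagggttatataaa
Mmp3: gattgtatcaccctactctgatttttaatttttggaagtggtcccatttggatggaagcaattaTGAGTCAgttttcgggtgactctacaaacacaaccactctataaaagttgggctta
Mmp10: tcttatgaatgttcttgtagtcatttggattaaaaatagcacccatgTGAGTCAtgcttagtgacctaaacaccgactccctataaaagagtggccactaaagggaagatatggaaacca
Mmp8: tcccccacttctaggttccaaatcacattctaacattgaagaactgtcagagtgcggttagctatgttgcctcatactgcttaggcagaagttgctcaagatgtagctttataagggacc

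TGANTCA began 35 bases before the start in *Mmp13*, 44 in *Mmp12*, 46 in *Mmp3* and 63 in *Mmp10*. *Mmp12* has a second window in RefSeq, further upstream, without a match. *Mmp1a* and *Mmp1b*, at or near 0 TPM, hold the motif as well, 73 and 93 bases before the start. *Mmp20* holds it 95 bases before, as TGAATCA, which is outside the AP-1 sequences named above. The presence of the motif thus did not separate expressed from unexpressed members of the cluster, and the gene with the largest difference between genotypes, *Mmp8*, was 1 of the 2 cluster genes without it in this window.

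The 5 expressed cluster genes shared their lowest tumor in each genotype, a pattern noticed after their values had been seen, while the highest tumor differed among them. All 5 were lowest in *Trp53fl/fl* replicate 2 among the *Trp53fl/fl* tumors and in *VP* replicate 3 among the *VP* tumors, where 12.1% of all genes tested and 4 of the other 23 members (*Adamts2*, *Adamts9*, *Timp2* and *Timp3*) had this order. Their summed level was 485, 150 and 344 TPM in *Trp53fl/fl* tumors and 562, 521 and 275 TPM in *VP* tumors. The difference between tumors of one genotype was thus larger than that between the genotype means, which were 326 and 453 TPM. Over the 6 tumors the log2 values spanned at least 2 units in 3 of the 5 (*Mmp3*, *Mmp8* and *Mmp13*), in 0 of the other 23 members and in 4.84% of all genes, and the median span was 2.21 in the cluster against 0.58 in the other members. For *Mmp8* the span also holds its difference between genotypes.

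Smooth muscle markers had the same lowest tumors. All 8 of the 8 genes on that list were lowest in *Trp53fl/fl* replicate 2 and *VP* replicate 3, and their summed level was 697, 496 and 822 TPM in *Trp53fl/fl* and 887, 1363 and 421 TPM in *VP* tumors. Of the neutrophil markers 3 of 10 tested had this order (*S100a8*, *S100a9* and *Retnlg*), as did 3 of 8 endothelial markers (*Eng*, *Kdr* and *Vwf*), 1 of 12 epithelial, 1 of 9 fibroblast, 1 of 10 macrophage, 0 of 6 T cell and 1 of 3 B and plasma cell markers. The part of smooth muscle content or of any other tissue share in the levels of the cluster was not tested.

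**Figure D4:**
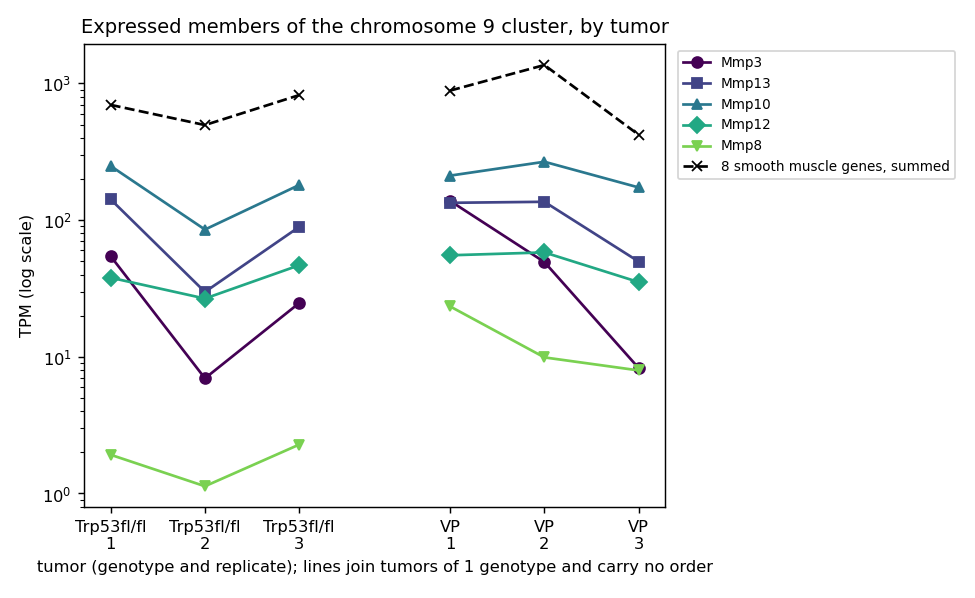
TPM on a log axis of the 5 expressed genes of the chromosome 9 cluster and the summed TPM of 8 smooth muscle marker genes in each of the 6 tumors. Lines join tumors of 1 genotype to guide the eye, and every line dips at *Trp53fl/fl* replicate 2 and reaches its lowest *VP* value at replicate 3.

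Genes related to the Mmps and Adamts proteases were taken from 7 lists of 82 genes, of which 69 were tested. The lists hold inducers, activators and the plasminogen system, and also substrates and other proteases. None passed the adjustment, and at an unadjusted limma p under 0.05, 15 were higher and 3 lower in *VP* tumors. Together these make 26.1% of the 69, against 12.5% of all genes. Among the 18 tested genes on the list of inducers of Mmp transcription, 6 were higher and 1 lower at that level, together 38.9%. *Osm*, a cytokine of neutrophils and macrophages that acts on stromal cells, was at 3.25, 2.08 and 3.41 TPM in *Trp53fl/fl* tumors and at 6.92, 7.78 and 9.38 TPM in *VP* tumors (log2 fold change 1.22, SE 0.20, limma adjusted p = 0.114). *Il6*, the interleukin, was at 1.70, 0.48 and 0.23 TPM and at 6.13, 4.57 and 4.46 TPM (log2 fold change 1.82, SE 0.32, limma adjusted p = 0.124). Both genes separated the genotypes in every tumor, without passing the adjustment. Among the *Trp53fl/fl* tumors only replicate 1 reached 1 TPM of *Il6*. This gene thus passed the filter only through *VP* tumors, which favoured its direction. The other 5 on this list at an unadjusted limma p under 0.05 were *Il1a*, *Tnf*, *Nfkbia* and *Fos* on the higher side and *Fosb* on the lower side. Of these *Nfkbia* encodes an inhibitor of the transcription factor NF-kB and is not itself an inducer.

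Plasmin, which plasminogen activators release from plasminogen, is an activator of precursor Mmps. Of 8 tested genes of this system and its inhibitors, 2 were higher at an unadjusted limma p under 0.05 (25%, where 4.51% of all genes were higher). The urokinase receptor *Plaur* was at 45.81, 34.02 and 44.38 TPM in *Trp53fl/fl* tumors and at 70.46, 71.13 and 71.16 TPM in *VP* tumors (log2 fold change 0.77, SE 0.13, limma adjusted p = 0.124). Urokinase, *Plau*, was at 38.30, 24.85 and 31.97 TPM and at 43.53, 39.46 and 40.74 TPM (log2 fold change 0.39, SE 0.16, limma adjusted p = 0.397). In both genes the *VP* tumors lay close together and above all *Trp53fl/fl* tumors. Of 11 tested activators and cofactors of Mmps none was past an unadjusted 0.05, and the smallest p-values were those of *Prss22* and *Cd44*. *Prss22*, a serine protease, was at 32.20, 26.65 and 16.35 TPM in *Trp53fl/fl* tumors and at 45.67, 33.78 and 32.49 TPM in *VP* tumors (log2 fold change 0.59, SE 0.26, limma adjusted p = 0.405). *Cd44*, the hyaluronan receptor that holds *Mmp9* at the cell surface, was at 66.33, 59.61 and 60.76 TPM and at 66.59, 81.44 and 75.24 TPM (log2 fold change 0.25, SE 0.11, limma adjusted p = 0.416). Both lay higher in every *VP* tumor, by a narrow margin.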

How the data were processed

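RNA-seq was analysed from 3 *Trp53fl/fl* and 3 *VP* tumors, grouped by the genotype and replicate number in the labels. The labels do not tie each tumor to a mouse, so p-values measure the spread between these tumors. Per the methods, poly(A) RNA was selected for the libraries. The submitters' processing notes name HISAT2, StringTie and the build mm9, while versions, annotation and strand setting are not given in the sources used here. The authors deposited TPM per gene with 2 decimals, 1 column per tumor and 0 columns without a sample. The columns sum to between 999964 and 1000067 TPM, and 14857 to 15234 genes reached 1 TPM. No reads can be recovered from TPM, so depth is unknown and no counting error is given.

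Genes that reached 1 TPM in 3 or more tumors were kept, and their log2(TPM + 1) values were compared in limma (version 3.58.1, R version 4.3.3; empirical Bayes with trend, Benjamini-Hochberg adjustment across all genes kept). The procedure was tested on simulated data. SD are over tumors, and SE are limma's moderated standard errors, which also draw on the variance of the other genes kept. Summed levels and counts without overlap carry no test. Values in every tumor are given for members with an unadjusted p under 0.05 or without overlap, the 12 members with the highest mean, all Timps and the expressed genes of the chromosome 9 cluster, and for the 2 genes with the smallest p in each list of related genes. *Adamts1*, *Adamts10* and *Vcan* were added after their values were seen. The members and all gene lists were chosen with earlier results of these data known. 1 Mmp gene is not analysed here, and protein sequences were not used here. Overlapping genes, not all of which are reported here, were taken from GENCODE M21, which holds all 45 members, and promoter windows from RefSeq (GRCm38.p6), a build other than that of the files. Each result was recomputed without the filter, with a filter on the mean (1 TPM or more), with a pseudocount of 0.1, after median-of-ratios rescaling, after quantile normalization, without the trend, with the replicate number as a block, and without each tumor in turn.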

Additional observations from a re-analysis of the deposited data

How the results depend on the processing

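No member passed the limma adjustment under any of the alternatives run. The number of members with an unadjusted limma p under 0.05 was 4 or 5 in all of them, and *Mmp8* and *Mmp11* were among them each time. With all tumors, *Adamts1* joined them under median-of-ratios rescaling and quantile normalization, *Adamts10* without trend, and *Mmp24* without the filter. *Adamts15* was not among them without *Trp53fl/fl* replicate 1, nor *Adamts4* without *VP* replicate 3. The limma adjusted p of *Mmp8* ran from 0.106 to 0.333 under the settings that keep all tumors and from 0.111 to 0.320 (limma) when 1 was left out. The count of genes called among all genes, 25, became 7 without the expression filter, where 27871 genes were tested, and ran from 3 (without *Trp53fl/fl* replicate 1) to 23 (without *VP* replicate 3) when each tumor was left out, with 14 and 9 without *Trp53fl/fl* replicates 2 and 3 and 7 and 5 without *VP* replicates 1 and 2. Same-numbered tumors did not deviate together (correlations 0.02, -0.05 and 0.02, against -0.108 to 0.095 for other-numbered tumors). The labels do not say whether the numbers pair tumors, and so few correlations cannot decide it. With the replicate number as a block 10 genes were called and 0 members. The members without overlap, 5, ran from 6 to 10 when 1 tumor was left out, as fewer tumors overlap less: 9 and 10 without *Trp53fl/fl* replicates 1 and 3, and 8 without *VP* replicate 3.

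Among the named members, small differences changed sign. *Mmp15*, at -0.03, became 0.046 under median-of-ratios rescaling and ran from -0.16 to 0.066 with 1 tumor left out. *Mmp14* ran from -0.21 to 0.022, *Mmp13* from -0.21 to 0.89, *Mmp3* from -0.057 to 1.90 and *Mmp28* from -0.024 to 0.38. The cause was not tested beyond the tumor left out. Of the recomputed fold changes of named members, 95 kept their direction and side of the threshold and 7 changed sign with 1 tumor left out, and 118 kept them and 1 changed sign under the other alternatives. With 3 tumors a genotype and no read depth, a difference of the size of *Adamts9* did not pass limma, although its tumors did not overlap. Its standard error was 0.15 in the main fit, which moderates it toward genes of similar level, and 0.11 without the trend.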

Other observations

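Other matrix proteases and substrates gave the following values. Of 9 tested ADAM proteases, mostly membrane-bound relatives of the Adamts genes, 7 had a negative fold change, as did 9187 of all 15117 genes tested. At an unadjusted limma p under 0.05, 1 was lower (11.1%, where 8% of all genes were lower), namely *Adam12*. It had 10.07, 9.72 and 12.93 TPM in *Trp53fl/fl* tumors and 3.31, 4.53 and 6.14 TPM in *VP* tumors, without overlap (log2 fold change -1.09, SE 0.22, limma adjusted p = 0.191). *Adam10*, a sheddase of Notch receptors, followed with 97.97, 104.11 and 66.31 TPM against 69.41, 60.66 and 73.56 TPM (limma adjusted p = 0.447).

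Of 7 tested cathepsins, lysosomal proteases that also degrade matrix, 3 were higher in *VP* tumors at an unadjusted limma p under 0.05. That is 42.9% of them, where 4.51% of all genes were higher. *Ctsb* was at 297, 295 and 280 TPM in *Trp53fl/fl* tumors and at 340, 363 and 355 TPM in *VP* tumors (log2 fold change 0.28, SE 0.09, limma adjusted p = 0.335). *Ctsk*, a collagen-degrading cathepsin, was at 10.61, 14.59 and 11.84 TPM and at 28.02, 16.45 and 16.41 TPM (log2 fold change 0.64, SE 0.23, limma adjusted p = 0.349). The third was *Ctss*, whose tumors overlapped.

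Among 12 tested substrates, *Lum*, a small collagen-binding proteoglycan, was at 9.94, 12.72 and 12.49 TPM in *Trp53fl/fl* tumors and at 7.15, 9.11 and 6.45 TPM in *VP* tumors (log2 fold change -0.57, SE 0.17, limma adjusted p = 0.313). *Vwf*, the substrate of *Adamts13*, was at 23.53, 23.01 and 23.42 TPM and at 31.60, 32.40 and 26.71 TPM (log2 fold change 0.36, SE 0.12, limma adjusted p = 0.328). *Eln* and *Vcan* were also higher at an unadjusted limma p under 0.05. Of 4 tested Adamts-like proteins, which lack the protease domain, *Adamtsl5* had the smallest p, with 1.71, 2.87 and 1.53 TPM in *Trp53fl/fl* tumors and 3.61, 2.84 and 3.36 TPM in *VP* tumors (limma adjusted p = 0.399). *Papln* came next, with 2.32, 2.76 and 1.62 TPM and 1.95, 1.42 and 1.26 TPM (limma adjusted p = 0.532). The summed levels of the remaining marker lists overlapped between genotypes, with 108 to 133 and 126 to 138 TPM for endothelium, 36.62 to 49.51 and 27.02 to 46.92 TPM for T cells, and 417 to 841 and 395 to 884 TPM for B and plasma cells. Within them, *Vwf* on the endothelial list was higher and *Cd3g* on the T cell list lower in every *VP* tumor.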
